A study of Mus musculus with 10 samples.

Results

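The genes described here encode the contractile and actin-based cytoskeleton of smooth muscle and of mesenchymal cells, together with SRF, the transcription factor that controls many of them. The list holds 35 genes: smooth-muscle filament proteins, myosin regulators, tropomyosins, actins, focal adhesion proteins, LIM and PDZ domain proteins, Srf and Myocd. It was drawn up with earlier results of the same comparison in view, so differences of its genes are given as a description, with their errors and without p-values. All 35 were found among the 32903 genes of the deposited table, and all 35 passed the filter on low counts that left 14597 genes.

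RNA was sequenced from preadipocytes, the precursors of fat cells, isolated from inguinal subcutaneous fat, all from wild-type C57BL/6 males. In 5 libraries the cells had received the vehicle DMSO, and in 5 libraries BPS (bisphenol S, a compound used in place of bisphenol A) at 2.5 µM in DMSO. The labels used here give neither age nor exposure time, and do not say that replicates came from different mice or dishes, so the spread between libraries may be technical. The series title places the work in the question of how bisphenols promote fat cell formation.

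Contractile and cytoskeletal genes were higher under BPS in most cases and lower in none. Of the 35 genes, 22 had an adjusted p under 0.05 in the fit over all genes (edgeR's quasi-likelihood test, Benjamini-Hochberg adjustment) and are called higher below, and 0 were called lower. Among all 14597 genes tested 4.88% were called, 3.06% higher and 1.82% lower. Among the 2035 genes with a mean of at least 100 CPM these shares were 8.6% and 3.78%. CPM are counts scaled by the library total times its TMM factor, edgeR's normalization between libraries. The median log2 fold change was 0.13 over the listed genes and 0.00039 over all genes tested. The list was chosen on this contrast, so its share of 62.9% is not read against these shares. In the other direction, 0 listed genes had an unadjusted p under 0.05 in the edgeR fit, and 0 were called lower by the DESeq2 Wald test or limma-voom. The changes were small: 4 of the 22 called genes exceeded 1.5-fold, and the range ran from 5.3% to 60.02%.

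Smooth-muscle contraction rests on actin filaments sliding along myosin, which is switched on when myosin light chain kinase phosphorylates the regulatory light chain. Many of the genes involved carry a CArG box, the DNA element that SRF binds. SRF acts with MRTF cofactors, which leave the cytoplasm when monomeric actin is used up by filament assembly, or with ternary complex factors downstream of growth factor signalling, and in smooth muscle also with myocardin, the product of Myocd. In adipose precursors, loss of actin stress fibres and of MRTF-SRF activity is known to accompany entry into the adipocyte programme.

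CArG boxes were searched in RefSeq promoter windows (assembly GRCm38.p6, 250 bases before to 50 after the transcription start), which held 29 of the 35 genes in 36 windows. The strict box has 2 C bases, 6 bases that are each A or T, and 2 G bases, and reads the same way on both strands. It occurred in 8 of the 29 genes (27.6%) and in 488 of 27025 genes with a promoter window (1.81%). Counted by window, 10 of 36 held a box, against 1.63% of 32851 windows. The 8 genes were Actg1, Cnn2, Fhl1, Fhl2, Ldb3, Myl9, Srf and Vcl. Of these, 7 were called higher under BPS, and Ldb3, which had 27 to 54 counts per library, was not. With or without a box, 19 of the 29 listed genes with a window were called higher. A link between box and call was not tested. A box with exactly 1 G or C among its 6 central bases occurred in Acta2, Jph2 and Myl9. With such boxes added, 10 of 29 listed genes (34.5%) and 11.3% of all genes had a match. These counts describe sequences and carry no test, and a window without a match says only that these letters are not in it.

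The promoter stretches of the called genes with a strict box are shown because their letters match the CArG box in genes whose levels are given below. Binding of SRF was not measured. Each runs 5′ to 3′ on the gene's own strand and ends before the transcription start, with the box in capitals. The Acta2 stretch, shown in addition, holds the 2 boxes with 1 G or C, and such boxes of Jph2 and Myl9 are not shown.
Srf (chr17:46556190-46556269, - strand): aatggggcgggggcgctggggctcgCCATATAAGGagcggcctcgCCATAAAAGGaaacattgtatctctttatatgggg
Actg1 (chr11:120348551-120348610, - strand): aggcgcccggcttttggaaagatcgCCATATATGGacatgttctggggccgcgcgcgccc
Cnn2 (chr10:79988519-79988578, + strand): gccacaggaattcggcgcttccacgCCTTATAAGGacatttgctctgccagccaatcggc
Vcl (chr14:20929148-20929205, + strand): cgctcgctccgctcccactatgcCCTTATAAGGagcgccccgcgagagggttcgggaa
Myl9 (chr2:156775278-156775337, + strand): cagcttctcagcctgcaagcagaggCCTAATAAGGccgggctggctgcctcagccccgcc
Fhl1 (chrX:56779556-56779615, + strand): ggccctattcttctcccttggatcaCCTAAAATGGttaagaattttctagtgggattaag
Fhl2 (chr1:43163962-43164017, - strand): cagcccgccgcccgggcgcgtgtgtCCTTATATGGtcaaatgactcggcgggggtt
Fhl2 (chr1:43196823-43196882, - strand): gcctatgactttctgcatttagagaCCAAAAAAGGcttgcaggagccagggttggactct
Acta2 (chr19:34255374-34255482, - strand): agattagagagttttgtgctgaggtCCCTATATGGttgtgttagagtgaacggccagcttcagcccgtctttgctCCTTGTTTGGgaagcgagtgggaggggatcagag
The boxes of Srf began 82 and 62 bases upstream of its start, that of Actg1 90 bases, that of Cnn2 56 bases and that of Fhl1 102 bases. Fhl2 had 1 box in each of 2 alternative promoters, 31 and 96 bases upstream. Vcl had the most distant box, 227 bases upstream, and Myl9 had one at 161 bases and the relaxed form at 99 bases.

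**Figure D1:**
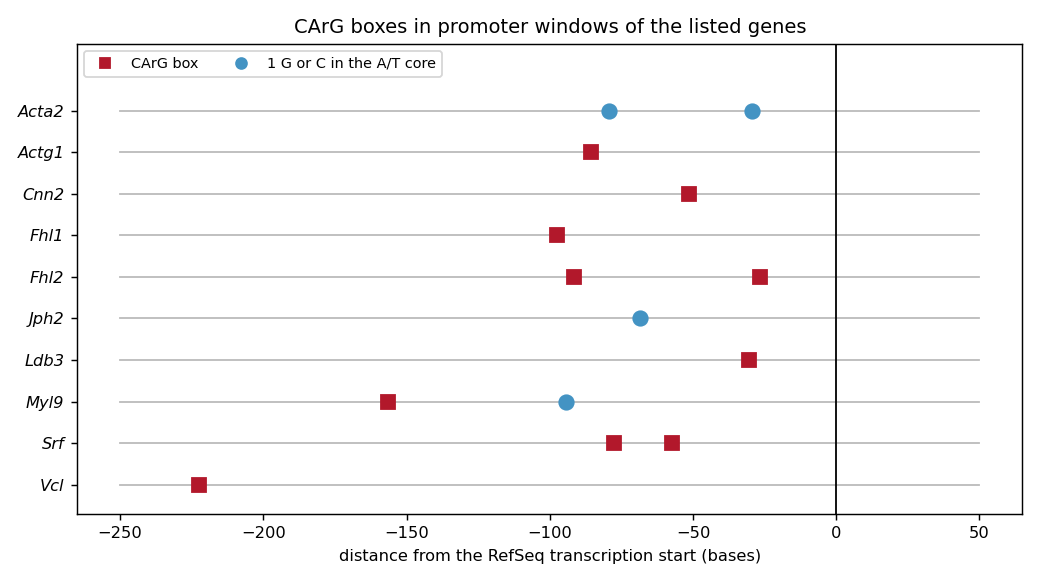
Positions of CArG boxes (squares) and of boxes with 1 G or C in the A/T core (circles) in the promoter windows of 10 listed genes, in bases from the RefSeq transcription start (vertical line), with grey lines spanning the windows of 250 bases before to 50 after it. All matches lie upstream of the start, from 227 bases in Vcl to 31 bases in Fhl2 at their first base.

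Among smooth-muscle filament and thin-filament proteins were Cnn1, Des and Actg2, 3 of the 4 genes past 1.5-fold, with 6 of 9 genes called higher and a median log2 fold change of 0.37. Acta2, smooth-muscle α-actin, is also the standard marker of myofibroblasts. It stood at 1017, 1067, 1058, 996 and 1046 CPM in the DMSO libraries and 1289, 1389, 1355, 1305 and 1356 CPM in the BPS libraries. Every BPS library lay above every DMSO library, with a log2 fold change of 0.37 (SE 0.02). Tagln (transgelin or SM22α, an actin-binding protein) had 696, 724, 712, 679 and 721 CPM in the DMSO libraries and 876, 928, 896, 872 and 846 CPM in the BPS libraries. Again the groups did not overlap, and the log2 fold change was 0.32 (SE 0.03). Per kilobase of transcript these were abundant genes, with 509 CPM per kb for Acta2 and 443 for Tagln in DMSO, against 1722 for Actg1 and 1610 for Actb.

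The largest change of the list was in this group. Cnn1 (calponin 1, a thin-filament protein that restrains myosin) had 5.71, 5.73, 5.15, 4.92 and 6.26 CPM in the DMSO libraries and 9.38, 8.04, 8.97, 9.36 and 8.66 CPM in the BPS libraries. Its log2 fold change of 0.68 (SE 0.07) was followed closely by that of Des. Des encodes desmin, the intermediate filament protein of muscle and of pericytes, and stood at 14.01, 13.04, 13.2, 12.6 and 13.3 CPM in the DMSO libraries and 24.5, 20.1, 19.7, 20.7 and 19.7 CPM in the BPS libraries. BPS replicate 1 was the highest library, and the other 4 BPS libraries still lay above all DMSO libraries, with a log2 fold change of 0.66 (SE 0.06) over all libraries. Actg2, the γ-actin of smooth muscle, went from 7.32, 6.55, 6.74, 6.32 and 7.26 CPM in DMSO to 10.9, 10.1, 10.2, 10.3 and 10.5 CPM in BPS. Lmod1, a leiomodin that nucleates actin filaments in smooth muscle, had 12.2, 12.6, 11.97, 12.5 and 11.6 CPM in the DMSO libraries and 16.8, 16.2, 16.5, 16.1 and 14.9 CPM in the BPS libraries. Neither gene's groups overlapped, and the log2 fold changes were 0.60 (SE 0.05) and 0.40 (SE 0.04).

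Not all smooth-muscle genes were called. Myh11, the smooth-muscle myosin heavy chain and the strictest marker of that lineage, stood at 2.37, 2.38, 2.05, 1.84 and 1.62 CPM in the DMSO libraries and 2.56, 2.33, 2.41, 2.37 and 2.21 CPM in the BPS libraries. The groups overlapped, and on 58 to 102 counts per library the log2 fold change was 0.21 (SE 0.11). Smtn (smoothelin) and Synpo2 (an actin-bundling protein of the Z-disc) had log2 fold changes of 0.04 (SE 0.04) and 0.13 (SE 0.05), also with overlapping groups.

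**Figure D2:**
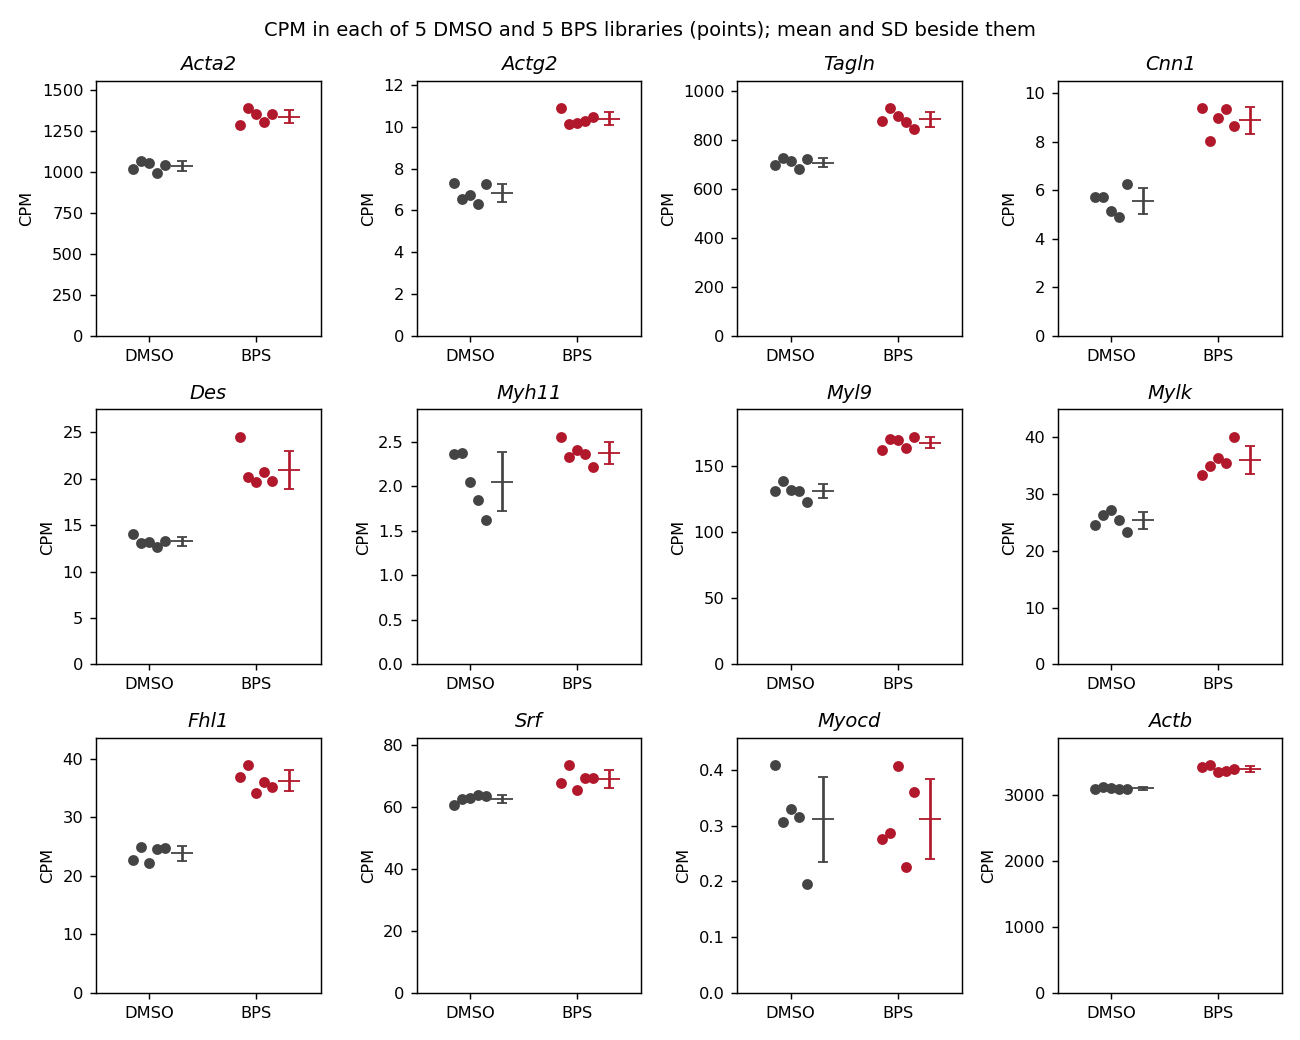
CPM (counts scaled by library total times TMM factor, linear axis from 0) of 12 listed genes in the 5 DMSO (grey) and 5 BPS (red) libraries. Each library is 1 point, with the mean and SD beside the points. The groups do not overlap except in Myh11 and Myocd.

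Of the 4 genes for the myosin light chain and its control, 2 were called higher. Myl9, the regulatory light chain of smooth-muscle and non-muscle myosin, had 131, 138, 132, 131 and 122 CPM in the DMSO libraries and 162, 169.9, 169, 164 and 172 CPM in the BPS libraries. Mylk, the kinase that phosphorylates it, had 24.5, 26.3, 27.2, 25.5 and 23.3 CPM in the DMSO libraries and 33.4, 34.96, 36.4, 35.5 and 40.1 CPM in the BPS libraries. Both light chain and kinase were higher in every BPS library than in any DMSO library, with log2 fold changes of 0.35 (SE 0.03) and 0.51 (SE 0.05). Ppp1r12b, a targeting subunit of the myosin phosphatase that opposes the kinase, had a log2 fold change of 0.05 (SE 0.06). Cald1, caldesmon, which inhibits actomyosin at the thin filament, was the closest to 0 among the abundant genes, with a log2 fold change of -0.0071 (SE 0.02) between vehicle libraries at 849.7 ± 21.5 and BPS libraries at 846 ± 24.8 CPM (mean ± SD, n = 5).

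Tropomyosins, the coiled-coil proteins that line the actin filament, changed by 10.6% or less. Tpm1 had 887, 898, 898, 880.2 and 882 CPM in the DMSO libraries and 973, 986, 1001, 978 and 978 CPM in the BPS libraries. Tpm2 had 347, 359.9, 351, 358 and 352 CPM in the DMSO libraries and 381, 388, 393, 376 and 369 CPM in the BPS libraries. Both were called, with no overlap between groups and log2 fold changes of 0.14 (SE 0.01) and 0.11 (SE 0.02). Tpm4, a non-muscle form, was the 1 uncalled gene of the list whose groups did not overlap, with a log2 fold change of 0.05 (SE 0.02).

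The widely expressed actins and actin binders differed by 1.71% in Cfl1 to 14.4% in Cnn2, with 4 of 5 called higher. Actb (β-actin), often used as a reference gene, stood at 3079, 3120.2, 3099, 3086 and 3076 CPM in the DMSO libraries and 3409.8, 3442, 3335, 3358 and 3385 CPM in the BPS libraries. Actg1 (γ-actin) had 3273, 3359, 3353, 3315 and 3378 CPM in the DMSO libraries and 3522, 3667, 3604, 3536 and 3565 CPM in the BPS libraries. The groups did not overlap in either cytoplasmic actin, and the log2 fold changes of 0.13 (SE 0.01) and 0.10 (SE 0.01) correspond to 9.50% and 7.29%. Cnn2, the calponin of non-muscle cells, had 453, 471, 469.7, 467 and 466 CPM in the DMSO libraries and 513, 549, 537, 524 and 538 CPM in the BPS libraries, a log2 fold change of 0.19 (SE 0.02). Tagln2, the widely expressed transgelin, had 323, 325, 323, 318 and 330.3 CPM in the DMSO libraries and 336, 355, 338, 342 and 334 CPM in the BPS libraries. Its log2 fold change of 0.07 (SE 0.02) was the smallest among called genes. Cfl1 (cofilin), which severs actin filaments, overlapped between groups at 0.02 (SE 0.02).

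Among cross-linkers and focal adhesion proteins, 2 of 5 were called higher. Vcl (vinculin), which couples adhesions to actin, had 436, 440.2, 438, 417 and 439 CPM in the DMSO libraries and 473, 500.1, 479, 482 and 497 CPM in the BPS libraries. Zyx (zyxin), a LIM protein recruited to stretched stress fibres, had 532, 533, 507, 509.7 and 526 CPM in the DMSO libraries and 595, 605, 594, 589.9 and 553 CPM in the BPS libraries. In both the lowest BPS library lay above the highest DMSO library, with log2 fold changes of 0.16 (SE 0.02) and 0.17 (SE 0.02). Flna (filamin A, which cross-links actin into networks), Actn1 (α-actinin 1, which bundles it) and Tln1 (talin, which activates integrins) were not called and their groups overlapped. Their changes on the log2 scale were 0.13 (SE 0.04) for Flna, 0.07 (SE 0.02) for Actn1 and 0.07 (SE 0.02) for Tln1. Without BPS replicate 1, Flna passed the threshold at a log2 fold change of 0.16, as did Tpm4 at 0.06.

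PDZ and LIM domain proteins, which anchor signalling and structural proteins to actin, had 4 of 6 genes called higher. Fhl1 (a LIM protein abundant in muscle) had 22.7, 25.02, 22.2, 24.6 and 24.8 CPM in the DMSO libraries and 36.9, 38.9, 34.1, 36.1 and 35.3 CPM in the BPS libraries. Csrp1, a LIM protein that bundles actin in smooth muscle, had 157, 159, 159, 152 and 161 CPM in the DMSO libraries and 178, 209, 187, 191 and 195 CPM in the BPS libraries. These were the clear changes of the group, without overlap and with log2 fold changes of 0.60 (SE 0.04) and 0.28 (SE 0.04). Fhl2, a LIM cofactor that binds SRF, had 166, 175, 177, 171 and 169 CPM in the DMSO libraries and 177, 181, 189, 179 and 191 CPM in the BPS libraries, and Pdlim7 (enigma) had 134, 141, 136, 138 and 138 CPM in the DMSO libraries and 145, 146, 148, 143 and 141 CPM in the BPS libraries. Their log2 fold changes were 0.10 (SE 0.02) and 0.08 (SE 0.02), with the lowest BPS library just above the highest DMSO library. Csrp2 and Ldb3, the latter a Z-disc protein with 27 to 54 counts per library, were not called, at 0.05 (SE 0.03) and 0.12 (SE 0.18).

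The calls of Tagln2, Pdlim7 and Fhl2, all under 10%, lay near the threshold. Leaving out each library in turn, 8 of the 10 fits lost each call. Tagln2 kept its call without BPS replicate 1 or BPS replicate 5, Pdlim7 without DMSO replicate 2 or BPS replicate 5, and Fhl2 without DMSO replicate 3 or BPS replicate 1. The other 19 called genes kept theirs in all 10 of these fits.

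Srf itself was called higher, and Myocd was barely detected. Srf had 60.7, 62.6, 63.00, 63.8 and 63.7 CPM in the DMSO libraries and 67.8, 73.6, 65.6, 69.4 and 69.5 CPM in the BPS libraries. The groups did not overlap, and the log2 fold change of 0.14 (SE 0.03) is 10.2%. Myocd, the smooth-muscle partner of SRF, had 0.408, 0.307, 0.330, 0.316 and 0.195 CPM in the DMSO libraries and 0.276, 0.287, 0.406, 0.225 and 0.360 CPM in the BPS libraries, or 7 to 15 counts per library. A difference in Myocd was not detectable at this depth, with a log2 fold change of -0.0031 (SE 0.24). With Myocd near 0 and Myh11 at 2.05 ± 0.330 CPM in DMSO (SD, n = 5), the strict smooth-muscle markers were low in both groups. Jph2 encodes junctophilin 2, which ties the plasma membrane to calcium stores in muscle, and stood at 14.7, 14.4, 14.2, 14.1 and 15.1 CPM in the DMSO libraries and 22.02, 21.2, 20.6, 20.6 and 21.1 CPM in the BPS libraries. Its log2 fold change was 0.54 (SE 0.03), with no overlap between groups.

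**Figure D3:**
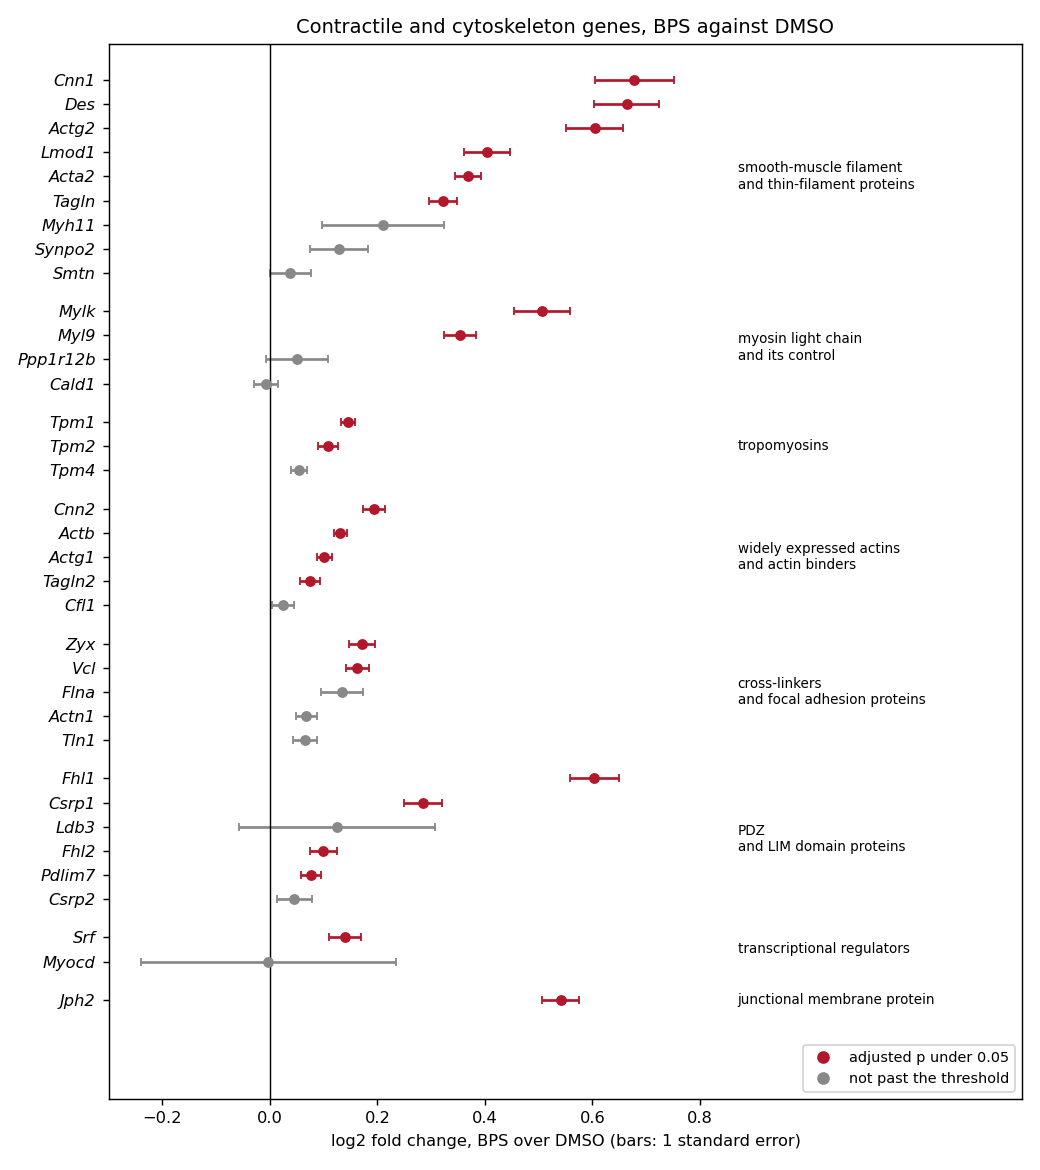
Log2 fold change of BPS over DMSO for the 35 listed genes, grouped by role, with bars of 1 standard error. Red points are the 22 genes with an adjusted p under 0.05 over all genes (edgeR), from 0.07 in Tagln2 to 0.68 in Cnn1, and grey points the 13 genes not past the threshold, 11 of them above 0.

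The size of change was also read by CPM, which reflects reads rather than molecules per gene. Among the 14 listed genes with a mean under 100 CPM, the median log2 fold change was 0.31 and 8 were called. Among the 21 genes with at least 100 CPM, the median was 0.11, the highest was 0.37 in Acta2, and 14 were called. All 22 called genes had separate groups, and with Tpm4 this made 23 of 35 genes, where the share of all genes tested was 4.19%. In the other direction it was 0 of 35, where the share of all genes was 2.71%. Neither count is read against these shares, because the list was chosen on this contrast. The called genes have separate groups, so their choice fixes that every BPS library lies above the DMSO mean, and the sizes by library are given only as a description. The median over these 22 genes of the log2 difference from the DMSO mean was 0.185, 0.308, 0.226, 0.228 and 0.235 in BPS replicates 1 to 5, and lay between -0.0119 and 0.0226 in the DMSO libraries. BPS replicate 2 was the highest and BPS replicate 1 the lowest of the BPS libraries, although BPS replicate 1 had the highest Des, Cnn1, Actg2, Lmod1 and Jph2.

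**Figure D4:**
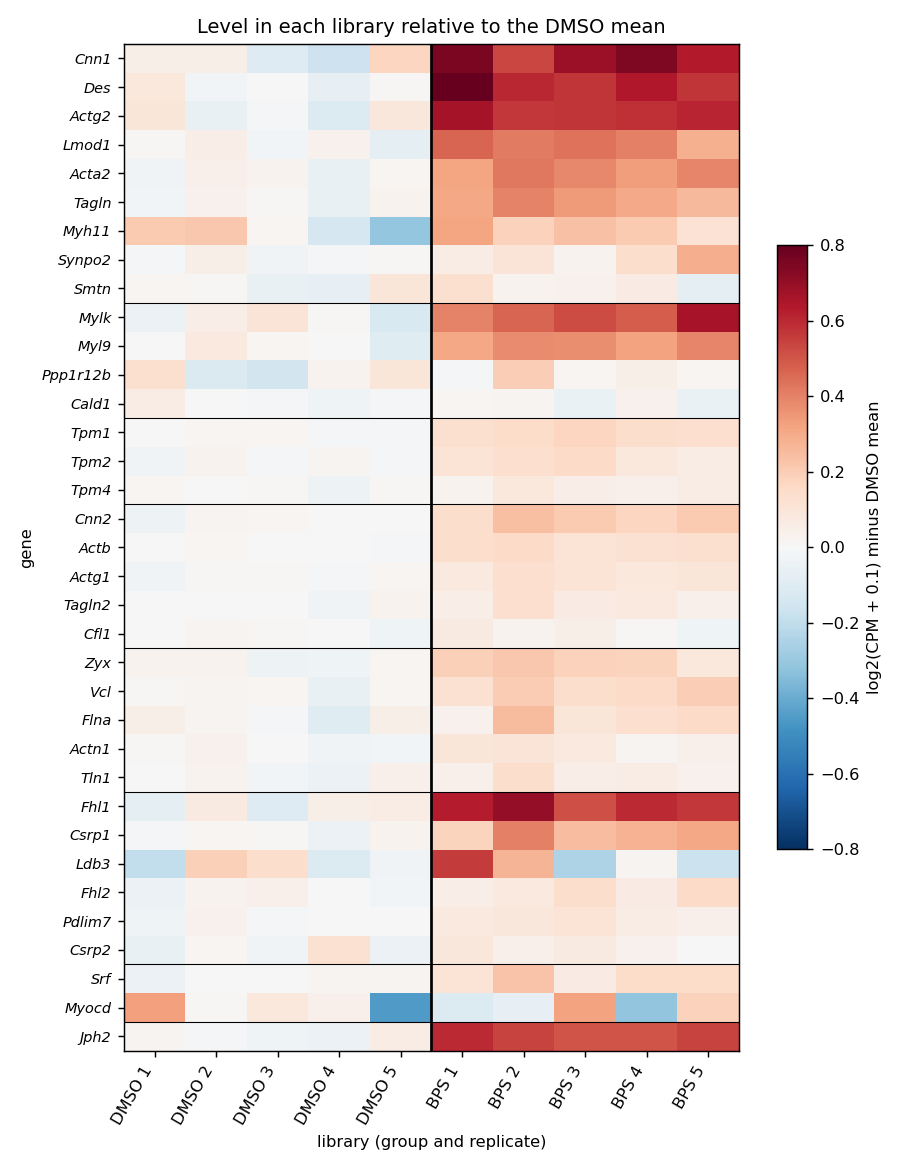
Level of each listed gene (rows, grouped by role) in each library (columns), as log2(CPM + 0.1) minus the mean of the 5 DMSO libraries, with red above and blue below that mean. The 5 BPS columns are red throughout for Cnn1, Des, Actg2, Lmod1, Acta2, Tagln, Mylk, Myl9, Fhl1 and Jph2, pale for Cald1, Cfl1 and Csrp2, and mixed for Ldb3 and Myocd.

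Transcripts were also tested without summing them per gene, with the reads of overlapping transcripts divided by the authors' program. Of 101 transcripts of the listed genes that passed the filter, 15 were called higher and 0 lower, in 14 genes. Over all 37588 transcripts tested, 0.242% were called higher and 0.0931% lower. Here too the counts of the chosen list are not read against these shares. Both transcripts of Acta2 were called, with log2 fold changes of 0.37 (SE 0.03) and 0.36 (SE 0.04) and 66.8% and 33.2% of the gene's counts.

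Other genes were uneven. The transcript with 73.8% of the Srf counts had a log2 fold change of 0.07 and that with 22.7% had 0.34, neither called. For Flna the transcript with 52.8% of the counts stood at 0.21 and that with 42.9% at -0.0022. Besides Srf, the called genes Jph2, Fhl1, Mylk, Zyx, Tagln2, Pdlim7 and Fhl2 had 0 called transcripts. The transcript with 83.0% of the Mylk counts had a log2 fold change of 0.41 (SE 0.07), with separate groups. Single transcripts of Jph2 and Fhl1 varied widely between libraries, with 175 to 862 counts per library for the main Jph2 transcript against 534 to 878 for the gene.

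Reads shared between genes may touch some of these values. In GENCODE M21 transcripts, 5 of the 35 genes shared over 5% of their 31-base words, the default word length of kallisto, with another gene counted here. They were Vcl (25.3%, with the overlapping gene Ap3m1), Actb (18.6%, mostly with Lrrc58), Cfl1 (14.3%, with Snx32), Smtn (12%, with Gm11946) and Actg1 (5.40%, mostly with Actb). The other 30 shared 3.98% or less, Acta2 1.20%. Mean levels were 56 CPM for Ap3m1, 155 for Lrrc58, 4.03 for Snx32 and 0.297 for Gm11946, here scaled by library total alone. How far levels and differences of these 5 genes depend on how such reads were divided was not tested. With genes that have no counts here included, Tagln shared 62.2%, Actg1 40.2% and Tpm4 20%. Whether reads went to such genes was not tested.

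Genes around the list were described from 7 lists of SRF partners, regulators and further targets. Their 105 tested genes gave 34 called higher and 2 called lower. Over all genes tested the shares were 3.06% and 1.82%, and 8.6% and 3.78% among those with at least 100 CPM. These lists too were chosen with earlier results of these data known, so their counts are not read against those shares. The 2 genes called lower were in the lists of immediate early genes and of TGF-β inputs. In the 5 lists with 0 called lower by edgeR, 0 genes were lower at an unadjusted p under 0.05, and the DESeq2 Wald test and limma-voom called 0 lower. These 5 lists were picked by their edgeR outcome, so this is only a description. Among the 7 SRF cofactors, 0 were called by edgeR, 0 had an unadjusted p under 0.05, and 0 were called by the DESeq2 Wald test or limma-voom. Mrtfa and Mrtfb, the actin-sensing cofactors, had log2 fold changes of 0.09 (SE 0.05) and -0.02 (SE 0.04).

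Of 30 other MRTF-SRF cytoskeletal targets, 12 were called higher and 0 lower, with a median log2 fold change of 0.10. Dstn (destrin, an actin-depolymerising factor) rose from 288 ± 4.24 to 325 ± 2.31 CPM (mean ± SD of 5 libraries), or by 0.18 (SE 0.01) on the log2 scale. Pdlim5, Tns1 and Pdlim1, proteins of Z-discs, adhesions and stress fibres, rose by 0.16 (SE 0.02), 0.16 (SE 0.02) and 0.14 (SE 0.02) on the log2 scale. Of 24 genes for actin turnover and nucleation, 8 were called higher and 0 lower (median 0.05), and 4 with scaling by library size alone. Tmsb4x, thymosin β4, which sequesters monomeric actin, rose from 512 ± 13.3 to 595 ± 14.9 CPM (by 0.22, SE 0.02, on the log2 scale). Actr3, Actn4 and Cotl1 rose by 0.10 (SE 0.01), 0.11 (SE 0.02) and 0.10 (SE 0.02).

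Among 20 further smooth-muscle genes 14 were tested, and 2 were called higher and 0 lower (median 0.15). Itga8, the α8 integrin of contractile cells, rose from 20.4 ± 0.910 to 27.98 ± 1.47 CPM (by 0.46, SE 0.04, on the log2 scale), and Hspb7, a small heat shock protein of muscle, by 0.54 (SE 0.06). Others of this list were near absent: Pln had 0 to 4, Casq2 0 to 1 and Gja4 0 to 2 counts per library.

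Immediate early genes that SRF controls with ternary complex factors had 6 of 12 genes called higher and 1 lower (median 0.18). Fos and Egr1 had log2 fold changes of 1.37 (SE 0.17) and 1.08 (SE 0.09), larger than that of any listed contractile gene, and Ier2 and Nr4a1 of 0.41 (SE 0.04) and 0.41 (SE 0.05). The 1 that fell was Ier3 (-0.34, SE 0.05), named after its value was seen. Of 8 genes that respond to matrix tension through YAP or SRF, 5 were called higher and 0 lower (median 0.19). Ccn2 (connective tissue growth factor) rose from 514 ± 14.4 to 638 ± 19.9 CPM (by 0.31, SE 0.02, on the log2 scale), and Ccn1, Thbs1 and Ankrd1 by 0.18 (SE 0.02), 0.29 (SE 0.03) and 0.30 (SE 0.05). TGF-β inputs gave 1 higher and 1 lower of 10 (median 0.01): Smad2 at 0.10 (SE 0.02) and Tgfb2, a ligand that induces contractile genes, at -0.28 (SE 0.06). With scaling by library size alone the median was -0.0028 and 0 were called higher.

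**Figure D5:**
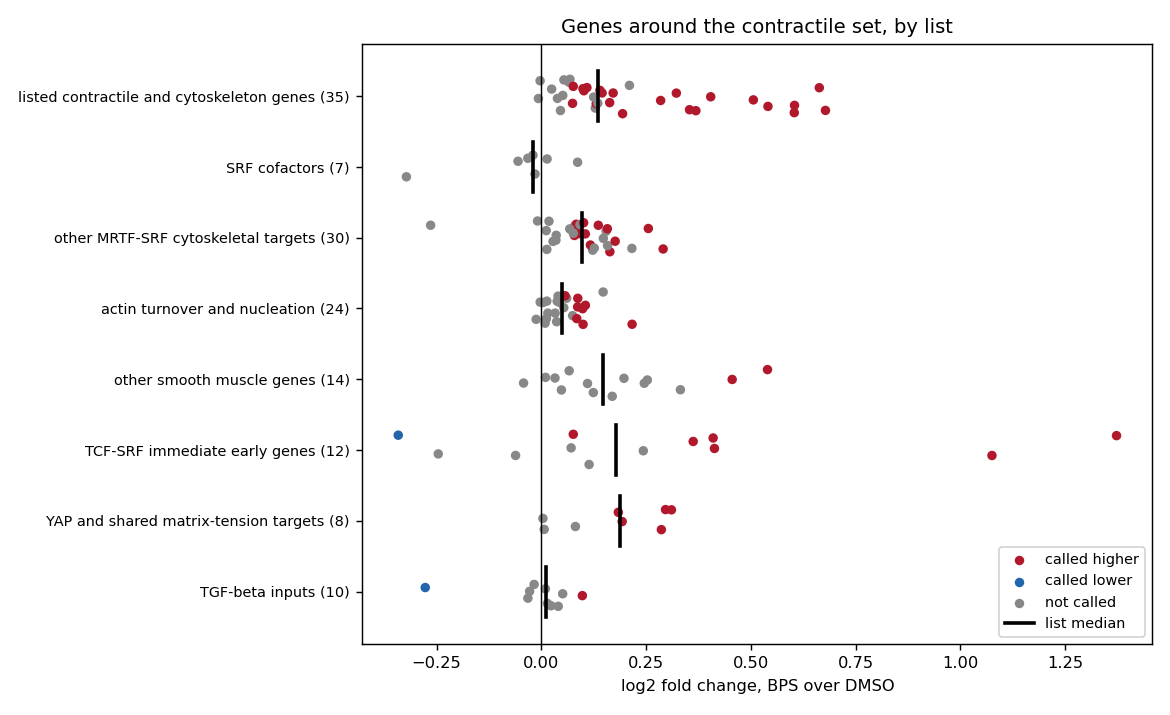
Log2 fold change of BPS over DMSO for the 35 listed genes and for the tested genes of 7 further lists (number in brackets), 1 point per gene, red where called higher, blue where called lower and grey otherwise, with the list median as a black bar. The median is highest for the tension targets (0.19) and immediate early genes (0.18) and lies below 0 for the SRF cofactors.

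Markers of the labelled cell type and of others were read beside these results. All 12 preadipocyte markers were tested, with a summed level of 23890 to 25572 CPM in DMSO and 22944 to 25914 CPM in BPS, a sum that is mostly Col1a1 (21821 ± 652 CPM in DMSO). Of these markers 1, Cd34, was called higher (log2 fold change 0.28, SE 0.03). Pdgfra had a log2 fold change of -0.07 (SE 0.02) and was not called by edgeR. It was the 1 marker of this list that was lower at an unadjusted p under 0.05 in that fit. The DESeq2 Wald test and scaling by library size alone each called 1 marker of this list lower, counted here without its name. Mural cells, the pericytes and smooth-muscle cells of vessels, share the contractile genes. Their 11 other markers summed to 129.7 to 135.6 CPM in DMSO and 135.9 to 153.9 CPM in BPS, without overlap, and 2 of the 9 tested were called higher (Mcam and Cspg4, named after their values were seen), of which limma-voom called 1. Levels within this list were uneven. Higd1b had 0 to 2 and Vtn 3 to 8 counts per library. Rgs5 went from 3.55 ± 0.376 CPM without BPS to 3.84 ± 0.357 CPM with it (mean ± SD of 5 libraries), not called. Kcnj8, Cox4i2, Abcc9 and Steap4 stood at 0.295, 0.798, 1.21 and 3.38 CPM in DMSO. Ndufa4l2, Cspg4, Mcam and Notch3 stood at 48.1, 39.1, 20.1 and 15.4 CPM in DMSO. The part of mural cells in the changes of the contractile genes was not tested.

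Skeletal muscle markers summed to 16.3 to 18.3 CPM in DMSO and 18.7 to 21.3 CPM in BPS, also without overlap. Myod1, Myog, Myf5 and Ckm had 0 to 1 counts per library and Pax7 had 0, while Acta1, skeletal α-actin and itself a target of SRF, was called higher with a log2 fold change of 0.46 (SE 0.09). The other 5 tested were not called by edgeR and ran in both directions. They went from -0.40 (SE 0.15) in Mylpf and -0.20 (SE 0.62) in Tnnt3 to 1.05 (SE 0.29) in Myh1. With limma-voom 2 genes of this list were called higher and 0 lower. Macrophage markers summed to 11.7 to 18.2 CPM in DMSO and 12.6 to 20.7 CPM in BPS, with Csf1r at 0 counts, and endothelial markers to 25.7 to 31.9 and 25.3 to 32.3 CPM. Neither list held a called gene by edgeR, the DESeq2 Wald test or limma-voom, and 0 had an unadjusted p under 0.05. Mesothelial markers summed to 9.05 to 11.1 CPM in DMSO and 11.1 to 12.9 CPM in BPS, with Msln and Upk3b at 0 counts. Of the 2 tested, Krt19 was called higher at a log2 fold change of 0.27 (SE 0.06), and Wt1 was not called at -0.59 (SE 0.22). In bulk RNA, more cells of a type and more RNA per cell cannot be told apart.

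Total estimated counts ran from 38200573 to 42314795 per library in DMSO and from 37920689 to 42717227 in BPS, and the chi-square per degree of freedom between replicates was 4.13 to 8.77, above the sampling noise of repeat counts of 1 library. Over all genes 447 were called higher and 265 lower, a split that became 334 and 394 with scaling by library size alone, under which 19 listed genes were still called higher and 0 lower. The library codes in the labels run through the DMSO libraries first and the BPS libraries after them, so a batch that followed this order and the treatment cannot be told apart.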

How the data were processed

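RNA of 5 DMSO and 5 BPS libraries was measured by RNA sequencing with a directional Illumina kit, per the labels' protocols. The authors deposited estimated counts per RefSeq transcript, made with kallisto 0.42.4 per the submitters' processing notes. The transcript release, genome build and strand setting are not given in the sources used here. Accessions were matched without version to the RefSeq gene table of GRCm38.p6, which placed 86722 of 107384 transcripts and 93.1% of the counts in 32903 genes, and 0 columns lacked a sample. Counts were summed per gene, rounded, filtered with filterByExpr and scaled by TMM (factors 0.9854 to 1.008). The treatment effect was tested with edgeR (quasi-likelihood, no covariate), and p-values were adjusted over all genes by the Benjamini-Hochberg method. The standard error is the unshrunken log2 fold change over the square root of F. CPM per kb uses GENCODE M21 lengths weighted by counts, for the 28 listed genes where these cover at least 50% of the counts.

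The listed genes and all other lists were chosen with earlier results of these data known. Values in every library are given for called listed genes and for 8 fixed by name, and up to 4 called genes with the smallest p, with a mean CPM of at least 1, are named per further list. One further list is not reported here. The code was tested on simulated data. Alternatives were DESeq2 size factors, library size alone, no filter, a filter of 1 CPM in 5 libraries, limma-voom, a replicate block, the DESeq2 Wald test, exact version matching, unsummed transcripts and leaving out each library. Their use on the further lists was chosen after seeing the data. The software was DESeq2 1.42.0, edgeR 4.0.16, Python 3.11.15, limma 3.58.1 and R 4.3.3.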

Additional observations from a re-analysis of the deposited data

Results flagged for a closer look

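In 7 of 70 groups of 5 values, 1 library stood apart from the others by Dixon's criterion at the 95% level, where chance gives about 1 in 20, or 3.5. Des was 24.5 CPM in BPS replicate 1 and 19.7 to 20.7 CPM in the other BPS libraries. BPS replicate 2 was high for Ppp1r12b, at 70.03 CPM against 60.9 to 63.1 CPM, and for Tln1, at 697 CPM against 647 to 658 CPM. DMSO replicate 4 was low for Tpm4, at 1298 CPM against 1336 to 1344 CPM, and for Vcl, at 417 CPM against 436 to 440.2 CPM. Cnn2 was low in DMSO replicate 1, at 453 CPM against 466 to 471 CPM, and Zyx was low in BPS replicate 5, at 553 CPM against 589.9 to 605 CPM. Without the library that stood apart, Des, Vcl, Cnn2 and Zyx were still called higher, and Ppp1r12b, Tpm4 and Tln1 were still not called.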

How the results depend on the processing

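Over the alternatives fitted per gene the number of listed genes called higher was 16 to 25 and the number called lower was 0. The lowest count, 16, came with exact version matching, where 20 of the 22 were tested and Srf (log2 fold change 0.14 to 0.07), Fhl2 (0.10 to 0.03), Tagln2 (0.07 in both) and Pdlim7 (0.08 to 0.07) were lost. The highest, 25 with the DESeq2 Wald test, added Tpm4, Actn1 and Flna. Testing transcripts without summing gave 14 genes with a called transcript, with adjustment over 37588 transcripts rather than 14597 genes. Tagln2, whose 1 transcript holds 100% of its counts, was not called there. Leaving out 1 library gave 19 to 23 listed genes. Over all genes the count was 712, and 328 with exact version matching (11761 genes tested), 374 with the replicate block, and 449 to 774 without single libraries. Without DMSO replicate 2 it was 449, without BPS replicate 2 it was 462, without BPS replicate 3 it was 465 and without BPS replicate 4 it was 462. The further lists, 34 higher and 2 lower, gave 19 higher with exact version matching, 1 lower with the replicate block, and 25 to 32 higher and 2 lower without single libraries. The causes of these differences were not tested.

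No pairing by replicate number was visible: the 5 same-numbered pairs had correlations of deviations of 0.08, -0.026, -0.030, 0.06 and -0.043. The labels state no pairing, and such correlations cannot settle whether the libraries were paired by design. Under the replicate block 19 listed genes were called higher, without Tagln2, Pdlim7 and Fhl2. The block left 3 of the 8 calls for actin turnover, 0 of the 2 for TGF-β inputs and 0 mesothelial markers, so the call of Krt19 was lost.

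Every called gene kept its direction in each alternative fitted per gene where it was tested. Tagln2, Pdlim7 and Fhl2 also lost their calls with library size alone and with no filter on low counts, and Tagln2 with DESeq2 size factors. Directions changed only for genes near 0 or with few counts. Cald1 turned to 0.0074, 0.0037 and 0.0046 without DMSO replicate 1, BPS replicate 3 and BPS replicate 5, and ran from -0.0176 to 0.0074 over all single libraries left out. Ldb3 turned to -0.0298 without BPS replicate 1, ran from -0.0298 to 0.21 over all single libraries left out, and was 0.93 with exact version matching. Myocd turned to 0.0050 with limma-voom, to 0.11, 0.02 and 0.00067 without DMSO replicates 1, 3 and 4, and to 0.04, 0.02 and 0.09 without BPS replicates 1, 2 and 4, with a range of -0.125 to 0.11 over all single libraries left out. With 7 to 15 counts per library for Myocd and 27 to 54 for Ldb3, depth limits what can be said of them.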
